A study of Mus musculus with 10 samples.

Results

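The genes described here carry fatty acids into the heart muscle cell and move them, bound to carnitine, into mitochondria. They were chosen by name as 9 genes of fatty acid and carnitine uptake, binding, activation and carnitine transfer (Cd36, Slc27a1, Fabp3, Acsl1, Cpt1a, Cpt1b, Cpt2, Crat and Slc22a5). Each was read through probe sets whose platform annotation names that gene alone. Of the 9 genes, 7 had such a probe set, with 8 probe sets between them, out of 19938 genes with a probe set of their own and 35556 probe sets in the table. Acsl1 had no probe set under its symbol. The 1 probe set annotated to Cpt1b also carries Gm44502, a non-coding transcript unit that RefSeq lists with the synonym Chkb-Cpt1b, so it is described apart and counted in no total.

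Total RNA of the cardiac biventricle, the tissue of both ventricles, was hybridised to 10 Affymetrix mouse gene arrays, 5 per group and 1 per mouse. The source names give the same alleles to both groups: loss of PGC-1a, floxed PGC-1b (bf/f) and MerCre, a Cre recombinase that tamoxifen activates. The titles name the first group PGC-1a-/- only and the second PGC-1a-/-bf/f/MerCre. At an age of 2 months the first group was injected with sunflower seed oil alone and the second with tamoxifen in that oil, 50 mg/kg per day on 2 days, and both were collected 1 month later at 3 months. All 10 mice are thus labelled as PGC-1a knockouts, there is no wild-type group, and the first group had no tamoxifen, so effects of tamoxifen, of active Cre and of the deletion cannot be told apart. The labels do not name the promoter that drives MerCre, nor say whether litters were shared. The groups are called vehicle-labelled and tamoxifen-labelled. The probe set of Ppargc1b, the gene labelled as deleted, was higher in all 5 tamoxifen-labelled arrays (9.93 to 10.15, log2 signal) than in the vehicle-labelled ones (9.65 to 9.90), so the directions below rest on the labels. The probe set of Ppargc1a, labelled as knocked out in all 10 mice, read 10.70 to 11.04 in the vehicle-labelled arrays and 10.95 to 11.58 in the tamoxifen-labelled ones, and was higher in the latter by 0.39 ± 0.095 (SE; limma adjusted p = 0.00813). Whether either probe set lies in the deleted exons is not given.

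A working heart draws most of its energy from long-chain fatty acids. CD36 and fatty acid transport protein 1 (Slc27a1) take them up at the plasma membrane, heart-type fatty acid binding protein (Fabp3) carries them through the cytosol, and acyl-CoA synthetases such as Acsl1 activate them. Carnitine palmitoyltransferase 1 (Cpt1a, the liver isoform, and Cpt1b, the muscle isoform) then exchanges coenzyme A for carnitine at the outer mitochondrial membrane, and carnitine palmitoyltransferase 2 (Cpt2) reverses this inside. Carnitine acetyltransferase (Crat) handles short acyl groups, and Slc22a5 (OCTN2) imports the carnitine. The coactivators PGC-1α and PGC-1β, through nuclear receptors of the PPAR and ERR families, are known to raise many of these genes.

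Slc27a1, the carnitine transporter gene Slc22a5 and the carnitine transferase genes Cpt2, Crat and Cpt1a fell in the tamoxifen-labelled arrays, by 1.11-fold to 1.34-fold. The uptake gene Cd36 and the binding protein gene Fabp3 did not pass the test. Of the 7 members, all bright enough to be tested, 5 were lower and 0 higher by limma at an adjusted p of 0.05 (5 and 0 also at an unadjusted p of 0.05). The call of Cpt1a was lost in 8 of 20 alternatives, which leave 4 members lower, among them those without vehicle-labelled array 1, 3 or 5 or tamoxifen-labelled array 3, 4 or 5. In 4 of the 5 that fell, the groups did not overlap, as in 6.12% of all tested genes in this direction. Among all 13953 tested genes 8.28% were lower and 13.6% higher, 21.9% in all. Over all genes the 1155 lower became 1784 with array weights, and without tamoxifen-labelled array 2, whose median signal stood above the others, 1649 were lower and 1622 higher. The median log2 fold change was -0.18 over the 7 members and 0.014 over all tested genes. The same 5 members were lower without that array, alone or with vehicle-labelled array 4 left out too. Each fall of a member was smaller than 1.5-fold. RNA came from whole ventricle, in which fewer cells of a type and less RNA per cell cannot be told apart. Values below are log2 signals, the log2 fold change is tamoxifen-labelled minus vehicle-labelled with its SE after ±, and adjusted p-values are limma's over all tested genes. The mice are separate animals, and the number of arrays limits the precision.

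**Figure D1:**
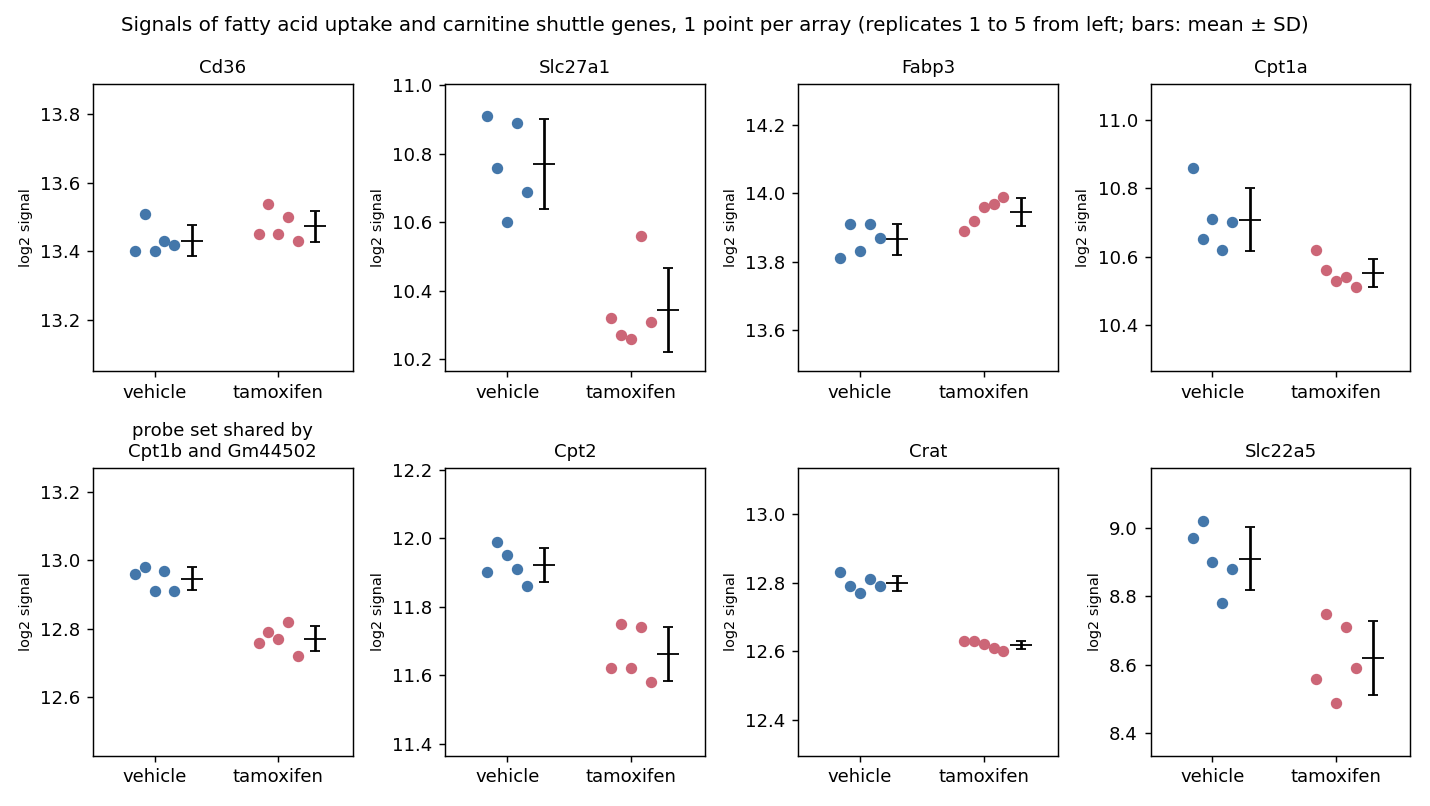
Log2 signal of the 7 tested members and of the probe set shared by Cpt1b and Gm44502 (vertical axis, the same span in each panel) in the 5 vehicle-labelled (blue) and 5 tamoxifen-labelled (red) arrays, 1 point per array in replicate order, with mean and SD as bars. The groups do not overlap for Slc27a1, Cpt2, Crat, Slc22a5 and the shared probe set, touch at 10.62 for Cpt1a, and overlap for Cd36 and Fabp3.

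The promoters shown here belong to a pair of members that fell, Cpt2 and Slc22a5, and to Cd36, which did not pass the test, so that members on either side can be compared. Each is the 250 bases before the RefSeq start site in GRCm38.p6, read 5′ to 3′ on the strand of the gene, with CpG dinucleotides in capitals. They lie at chr4:107923590-107923839 (Cpt2, minus strand), chr11:53891704-53891953 (Slc22a5, minus strand) and chr5:17835897-17836146 (Cd36, minus strand).
Cpt2: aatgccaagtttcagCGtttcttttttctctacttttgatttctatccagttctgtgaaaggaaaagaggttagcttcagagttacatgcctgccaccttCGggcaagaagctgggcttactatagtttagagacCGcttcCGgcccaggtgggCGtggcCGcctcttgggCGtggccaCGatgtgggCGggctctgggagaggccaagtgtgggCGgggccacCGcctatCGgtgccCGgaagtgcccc
Slc22a5: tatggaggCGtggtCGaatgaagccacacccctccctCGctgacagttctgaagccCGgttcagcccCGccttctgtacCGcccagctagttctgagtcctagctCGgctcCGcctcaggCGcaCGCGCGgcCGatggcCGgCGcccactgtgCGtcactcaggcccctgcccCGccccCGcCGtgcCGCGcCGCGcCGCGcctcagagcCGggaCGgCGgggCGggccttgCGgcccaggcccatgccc
Cd36: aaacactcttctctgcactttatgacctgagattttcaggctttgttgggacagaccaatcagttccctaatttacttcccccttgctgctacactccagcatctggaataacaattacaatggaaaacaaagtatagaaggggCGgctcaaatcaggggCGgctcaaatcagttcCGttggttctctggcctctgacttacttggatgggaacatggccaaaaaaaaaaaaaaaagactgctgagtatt

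The promoters differed widely in base composition, within the members that fell and within those that did not. The Slc22a5 window held 30 CpG and 73.6% G and C, the Cpt2 window 13 CpG and 56.8%, and the Cd36 window 3 CpG and 43.2%. The window of Fabp3, which did not pass either, had 17 CpG. Cpt1a had 14, and the 3 start sites of Slc27a1 had 8, 12 and 10. Over tested genes with a window the median was 15 CpG among those that fell, 16 among those that rose and 15 among the rest. Of the 9 members, 7 had windows, among them Acsl1, whose signal was not tested. Crat, which fell, and Cpt1b had none. Both strands were searched for AAGGTCA, the half-site known to bind ERR receptors. It was in none of the windows of these 7 members and in 4.08% of 32851 windows of this length. Its extended form TNAAGGTCA, which contains the former, was likewise in none and in 1.14% of all windows. The direct repeat AGGNCANAGGNCA, of the kind known to bind PPAR with RXR, was in none and in 0.338% of all. The median G and C content was 52.4% over all windows and 59.6% over those of tested genes. These shares are thus not matched in base composition. With so few member windows and such low shares, finding none does not set the members apart from other genes.

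At the plasma membrane the 2 uptake genes changed unequally. Slc27a1, whose product also has acyl-CoA synthetase activity, read 10.91, 10.76, 10.60, 10.89 and 10.69 in vehicle-labelled arrays 1 to 5. In tamoxifen-labelled arrays 1 to 5 it read 10.32, 10.27, 10.26, 10.56 and 10.31. All 5 tamoxifen-labelled values lay below the lowest vehicle-labelled one, and array 4 was the highest of its group. Slc27a1 fell by 0.43 ± 0.071 (adjusted p = 0.000383), or 1.34-fold with a 95% interval of 1.21 to 1.49, the deepest fall of the members. Of all tested genes 294 fell further. Without tamoxifen replicate 4 the fall was 0.48.

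Cd36, a scavenger receptor that binds long-chain fatty acids, read 13.40, 13.51, 13.40, 13.43 and 13.42 in the vehicle-labelled arrays. It read 13.45, 13.54, 13.45, 13.50 and 13.43 in the tamoxifen-labelled arrays. The groups overlapped almost wholly, with the highest value of each in array 2. The log2 fold change was 0.042 ± 0.046 (adjusted p = 0.570), with a 95% interval of -0.056 to 0.14. A fall of the size seen in Slc27a1 lies outside that interval. Of all tested genes 0.39% were brighter than Cd36 and 11.1% brighter than Slc27a1. The part of brightness in this contrast was not tested. The difference Cd36 minus Slc27a1, formed within each array so that a shift of a whole array cancels, was larger in the tamoxifen-labelled group by 0.47 ± 0.082 (SE). Its values did not overlap between the groups (exact two-sided permutation p = 0.00794, the smallest that 5 against 5 arrays can give, and 0.0317 adjusted over 4 pairs). With 1 array left out it was 0.43 to 0.52, and the adjusted p was 0.0635 for every array but tamoxifen-labelled array 2, a value that 4 against 5 arrays cannot undercut unless another pair also has a low p.

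The cytosolic carrier gene Fabp3 did not pass the test, with a log2 fold change above 0. Its probe set with the higher mean (10508614) read 13.81, 13.91, 13.83, 13.91 and 13.87 in the vehicle-labelled arrays. In the tamoxifen-labelled arrays it read 13.89, 13.92, 13.96, 13.97 and 13.99. The ranges shared only the stretch from 13.89 to 13.91. The log2 fold change was 0.080 ± 0.046 (adjusted p = 0.237, 95% interval -0.017 to 0.18). The second probe set (10371502) gave 13.72 ± 0.028 and 13.82 ± 0.050 (SD, n = 5), a log2 fold change of 0.096 ± 0.045 with a limma adjusted p of 0.139 when each probe set was tested on its own. Fabp3 passed, as higher, in 1 alternative, a trended and robust prior (adjusted p = 0.0480, and 0.0480 to 0.394 over all alternatives).

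Of the carnitine transferases, Cpt2 and Crat are given first. Cpt2, the transferase of the inner membrane, read 11.90, 11.99, 11.95, 11.91 and 11.86 in vehicle-labelled arrays and 11.62, 11.75, 11.62, 11.74 and 11.58 in tamoxifen-labelled ones. The groups did not overlap, as in 6.12% of all tested genes in this direction. Cpt2 fell by 0.26 ± 0.051 (adjusted p = 0.00154), or 1.20-fold with an interval of 1.11 to 1.29. Crat, which buffers acetyl groups as acetylcarnitine, had the narrowest spread of the members. It read 12.83, 12.79, 12.77, 12.81 and 12.79 against 12.63, 12.63, 12.62, 12.61 and 12.60, with no overlap. Crat fell by 0.18 ± 0.042 (adjusted p = 0.00603), or 1.13-fold with an interval of 1.06 to 1.21. The falls of Cpt2 and Crat differed by -0.080 ± 0.043, a difference that did not pass (exact permutation p = 0.111, adjusted p = 0.148).

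Cpt1a, the isoform that liver uses and the heart also makes, read 10.86, 10.65, 10.71, 10.62 and 10.70 in vehicle-labelled arrays. It read 10.62, 10.56, 10.53, 10.54 and 10.51 in tamoxifen-labelled ones. Only the values at 10.62, vehicle array 4 and tamoxifen array 1, met. Cpt1a fell by 0.16 ± 0.053 (adjusted p = 0.0437), or 1.11-fold. Leaving out vehicle-labelled array 1, 3 or 5, or tamoxifen-labelled array 3, 4 or 5, ended the call (adjusted p = 0.0728 to 0.120). It was also lost with arrays centred on the median (adjusted p = 0.0559) and with no filter on dim probe sets (0.0844), over a range of 0.0109 to 0.120.

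The probe set shared by Cpt1b and Gm44502 (10431564) cannot be assigned to either transcript. It read 12.96, 12.98, 12.91, 12.97 and 12.91 in vehicle-labelled arrays and 12.76, 12.79, 12.77, 12.82 and 12.72 in tamoxifen-labelled ones, with no overlap. With probe sets of several symbols kept in the fit, it was lower by 0.17 ± 0.044 (adjusted p = 0.00979). The change of Cpt1a less that of the shared probe set was 0.018 ± 0.051 (exact permutation p = 0.722, adjusted p = 0.722). The change of the shared probe set less that of Cpt2 was 0.086 ± 0.030 (exact permutation p = 0.0397), and it did not pass after adjustment over the 4 pairs (adjusted p = 0.0794). It did after quantile normalization (adjusted p = 0.0159) and without tamoxifen replicate 2 (adjusted p = 0.0317).

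**Figure D2:**
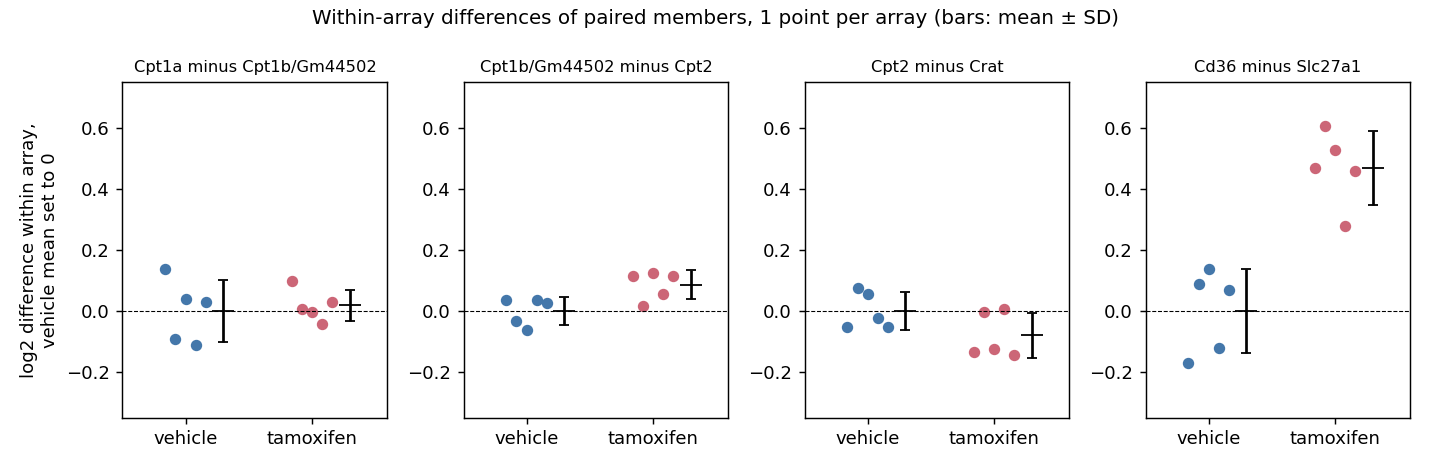
Difference of 2 log2 signals within each array (vertical axis, log2 units, with the vehicle-labelled mean set to 0) for the 4 pairs compared, 1 point per array with mean and SD as bars. Cd36 minus Slc27a1 is higher in every tamoxifen-labelled array than in any vehicle-labelled one; the other 3 pairs overlap.

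The carnitine transporter gene Slc22a5 read 8.97, 9.02, 8.90, 8.78 and 8.88 in vehicle-labelled arrays and 8.56, 8.75, 8.49, 8.71 and 8.59 in tamoxifen-labelled arrays. The lowest vehicle-labelled value, in array 4, stood only a little above the highest tamoxifen-labelled one, in array 2. Slc22a5 fell by 0.29 ± 0.061 (adjusted p = 0.00277), or 1.22-fold with an interval of 1.12 to 1.34, after Slc27a1 the second deepest fall of the members.

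**Figure D3:**
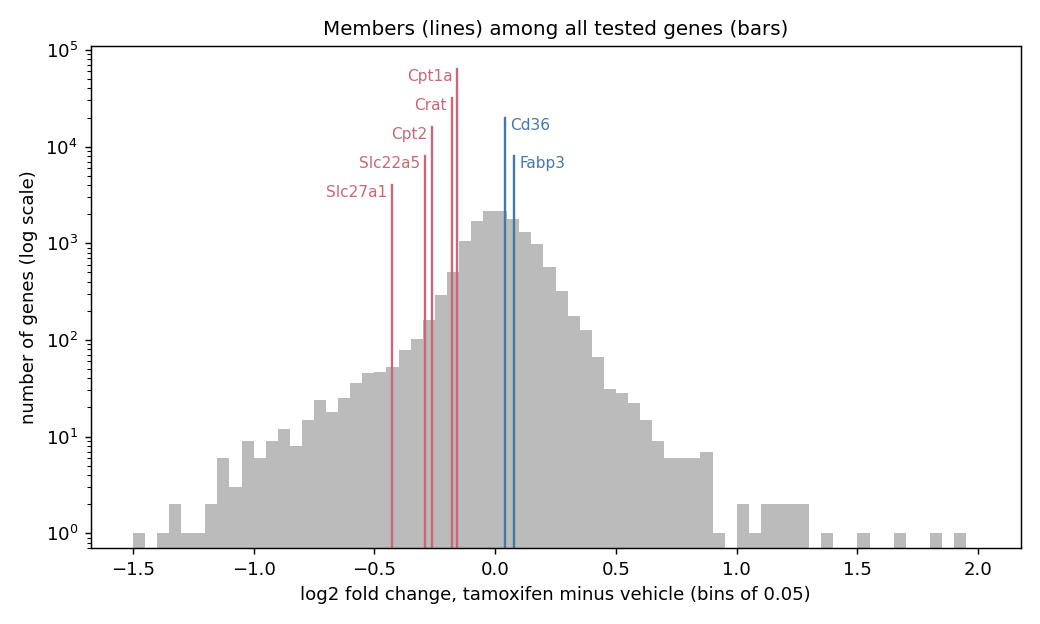
Number of tested genes (vertical axis, log scale) by log2 fold change in bins of 0.05 (horizontal axis), with members as lines, red where called lower and blue where not called. The members lie between -0.43 and 0.080, while tested genes range from -1.45 to 1.93.

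Other genes of the same steps were listed by role and read from the same fit. Beside each count below, the shares over all tested genes were 8.28% lower and 13.6% higher. Of 14 relatives in fatty acid uptake and binding, 7 were bright enough to be tested, and 1 fell. That was Got2, the mitochondrial aspartate aminotransferase also described as a plasma membrane fatty acid binding protein, from 13.79 ± 0.029 to 13.39 ± 0.048 (SD, n = 5; log2 fold change -0.39 ± 0.045). Fabp4 (-0.034), Cav1 (-0.0020), Slc27a4 (-0.084) and the acyl-CoA binding protein gene Dbi (0.13, adjusted p = 0.0668) did not pass. Of 5 genes around lipoprotein lipase, which frees fatty acids from circulating triglyceride, 1 fell, the lipase maturation factor gene Lmf1 (-0.48 ± 0.061, adjusted p = 2.51e-05). The lipase gene Lpl itself stood at 13.67 ± 0.044 and 13.67 ± 0.056 (SD, n = 5).

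Among genes of activation and of acyl-CoA thioesters, 3 of 10 fell and 1 rose, where 8.28% of all tested genes fell and 13.6% rose. The acetyl-CoA synthetase genes Acss1, of mitochondria, and Acss2, of the cytosol, fell by 0.21 ± 0.052 and 0.33 ± 0.075, and the thioesterase gene Acot7 fell by 0.29 ± 0.054. The long-chain acyl-CoA synthetase gene Acsl5 rose by 0.18 ± 0.057 (adjusted p = 0.0303). Its call ended in 8 of 20 alternatives, among them those that left out vehicle-labelled array 1, 3 or 4, or tamoxifen-labelled array 1, 2 or 4 (0.14 to 0.22 over all alternatives, adjusted p = 0.0110 to 0.0897). The synthetase genes Acsl4 and Acsl6 did not pass, at 0.0020 and 0.024.

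Of 5 tested carnitine relatives 1 fell, Aldh9a1, an enzyme of carnitine synthesis (-0.19 ± 0.048, adjusted p = 0.0107). Slc25a20, the inner-membrane carrier that swaps acylcarnitine for carnitine and so works between the outer and inner transferases, did not pass (-0.11 ± 0.056, adjusted p = 0.199). Its tamoxifen-labelled values of 11.28, 11.44, 11.28, 11.49 and 11.25 overlapped the vehicle-labelled range of 11.41 to 11.53. Crot, the peroxisomal carnitine octanoyltransferase gene, and Slc22a4, a transporter gene related to Slc22a5, stood at -0.094 and -0.13, and neither passed. The brain isoform gene Cpt1c read 7.45 in the mean of either group.

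Genes that set malonyl-CoA, the inhibitor of carnitine palmitoyltransferase 1, went both ways. Of 8 tested, 3 rose and 2 fell, where 13.6% of all tested genes rose and 8.28% fell. At an unadjusted p of 0.05 the counts were 5 and 2. Acaca (0.16, adjusted p = 0.0744) and Prkaa1 (0.12, adjusted p = 0.0603) did not pass after adjustment. The AMP-activated kinase subunit genes Prkaa2, Prkab2 and Prkag2 rose by 0.24 ± 0.052, 0.24 ± 0.053 and 0.22 ± 0.058, while the subunit gene Prkag1 fell by 0.16 ± 0.044. Mlycd, which breaks malonyl-CoA down, fell by 0.18 ± 0.056 (adjusted p = 0.0265). Its call ended with vehicle-labelled array 2, 3 or 5 left out, with tamoxifen-labelled array 1 or 3 left out, and with no filter on dim probe sets (adjusted p = 0.0550 to 0.0759). Acacb, the acetyl-CoA carboxylase isoform of muscle mitochondria, stood at 10.73 ± 0.067 and 10.74 ± 0.048 (SD, n = 5).

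**Figure D4:**
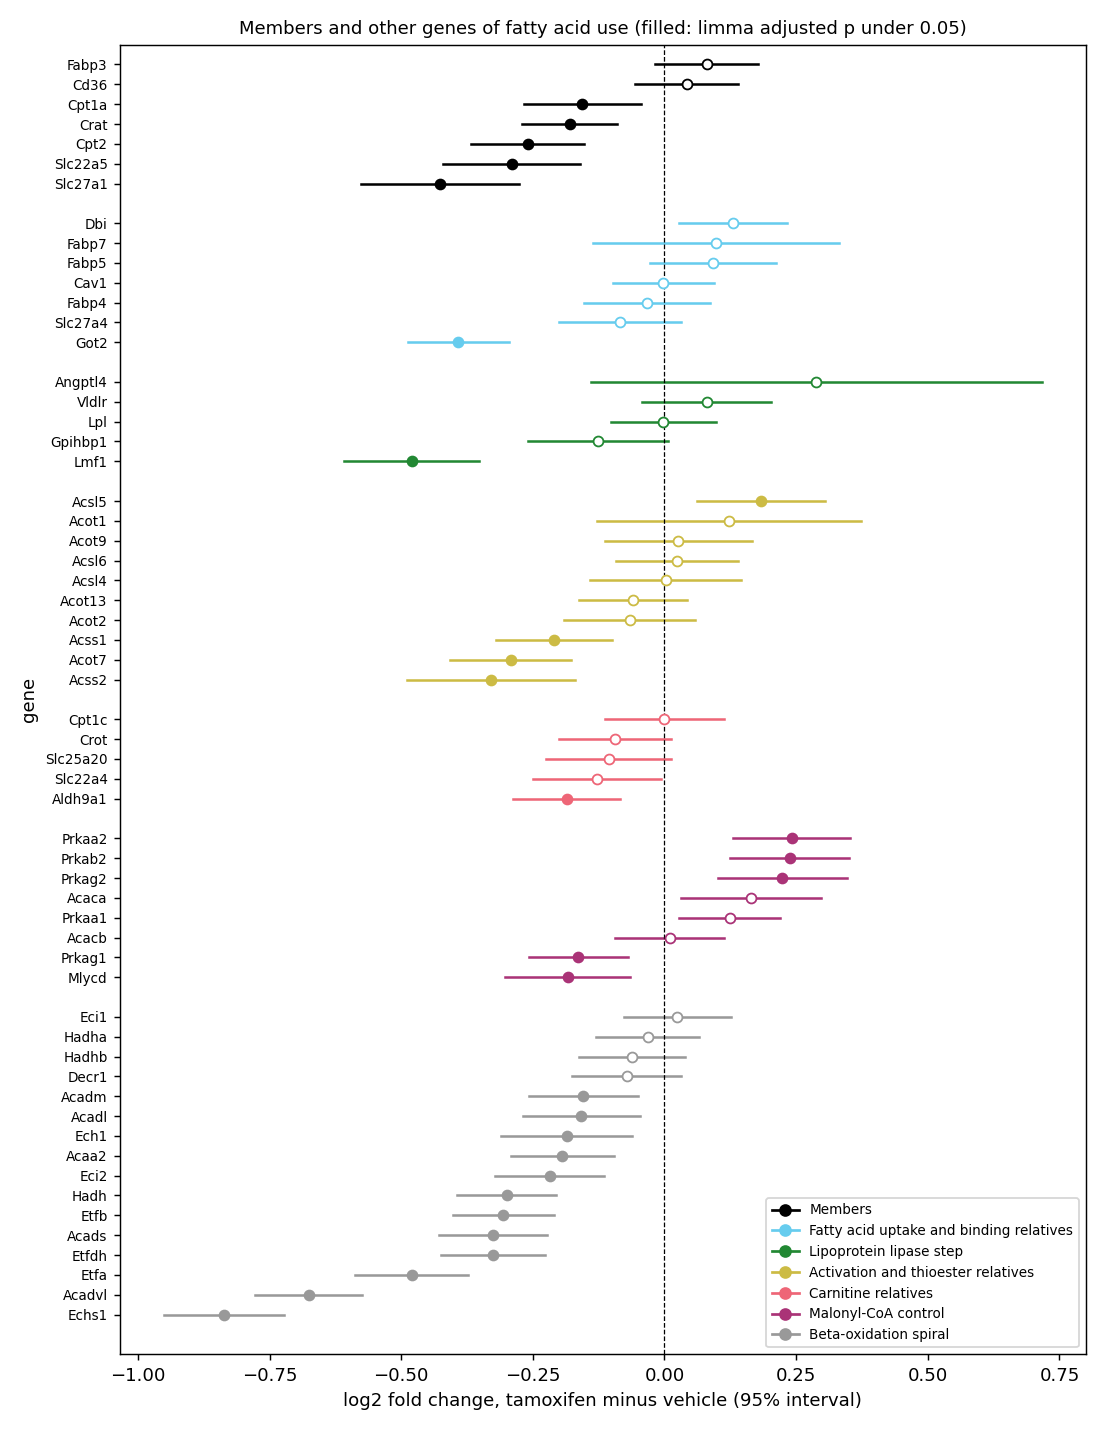
Log2 fold change with its 95% interval (horizontal axis) of the tested members, of their relatives by step and of the beta-oxidation spiral, 1 gene per line, filled where limma's adjusted p is under 0.05. Of the members, Slc27a1, Slc22a5, Cpt2, Crat and Cpt1a lie left of 0 and are filled.

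In the beta-oxidation spiral, the next step for the imported fatty acids, 12 of 16 genes fell and 0 rose. At an unadjusted p of 0.05, 0 rose as well. Of all tested genes 8.28% fell and 13.6% rose. The spiral list had a median log2 fold change of -0.21, against -0.18 for the members. The difference between the lists was not tested. The deepest falls were those of Echs1 (-0.84 ± 0.054) and Acadvl (-0.68 ± 0.048), while the trifunctional protein genes Hadha and Hadhb did not pass (-0.032 and -0.062). Of 9 receptor genes known to act on the members, Ppara fell by 0.22 ± 0.056, Esrra by 0.42 ± 0.057 and Esrrb by 0.25 ± 0.073, and Rxrg rose by 0.39 ± 0.048. The Esrrb call ended when tamoxifen-labelled array 1, 3 or 5 was left out (adjusted p = 0.0514 to 0.0563). Ppard, Pparg, Rxra, Rxrb and Esrrg did not pass.

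The genes whose profiles over the 10 arrays came closest to each member were mostly outside fatty acid metabolism. Closeness was the root mean square difference between log2 signals after each gene's own mean was taken off. Profiles were not scaled to their spread, and the share of fatty acid genes among all tested genes was not counted. For Cpt2 these were Yif1b (0.031) and the auxiliary beta-oxidation enzyme gene Eci2 (0.032). For Crat they were the mitochondrial ribosomal gene Mrpl49 (0.026) and the coactivator gene Ncoa1 (0.029). Slc22a5 had Kansl3 (0.034) and Cstf2t (0.045), and Slc27a1 had Adhfe1 (0.086) and Syt7 (0.089), the loosest match. Cpt1a had Pdzd2 (0.029) and Nars2 (0.035). Fabp3 had Wbp4 (0.035) and the myoglobin gene Mb (0.036), and Cd36 had Cdc37l1 (0.021) and Tpd52l2 (0.023).

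Markers of some other cell types moved with the groups. All 7 cardiomyocyte markers, which check the tissue label, were above the brightness filter, and 1 fell, Ryr2 (-0.16, adjusted p = 0.0241, a call that ended at 0.0514 to 0.0645 when vehicle-labelled array 1, 3 or 5, or tamoxifen-labelled array 5, was left out). Their mean log2 signal was 14.02 to 14.03 in vehicle-labelled arrays and 14.01 to 14.04 in tamoxifen-labelled arrays. Of 7 macrophage markers 5 rose (list mean 8.20 to 8.40 against 8.41 to 8.68), and of 7 fibroblast markers 4 rose (10.15 to 10.30 against 10.31 to 10.52). At an unadjusted p of 0.05 these counts were 7 and 5. Of all tested genes 13.6% rose by adjusted p. Macrophages are known to make Cd36 as well, and the part of either cell type in the results was not tested. Of 7 endothelial markers, whose cells also make Cd36, 0 passed by limma, with 1 at an unadjusted p of 0.05, Cdh5 (list mean 10.63 to 10.79 against 10.67 to 10.83). Of 7 adipocyte markers, Adipoq and Lep were below the brightness filter and 0 of the 4 tested passed, adjusted or not (8.52 to 8.75 against 8.48 to 8.75). Of 7 skeletal muscle markers, Myh4, Myh1 and Mylpf were below the filter and 1 of 4 tested rose (7.07 to 7.36 against 7.14 to 7.36).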

How the data were processed

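Per the labels' protocols, complementary DNA from 450 ng of total RNA was biotin-labelled and hybridised. The values the authors deposited are log2 signals. The submitters' processing notes name RMA and Affymetrix Expression Console 1.1, which correct the background, normalize between arrays and summarise each probe set. Column medians were 7.18 to 7.24, and 7.31 in tamoxifen-labelled array 2.

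Symbols came from the platform annotation: 21789 of 35556 probe sets had 1 symbol, 1621 several and 12146 none. A gene with several probe sets was read by the brightest one on average. The dimmest 30% of genes (mean log2 under 6.53) were left out. Groups came from the titles. limma 3.58.1 in R 4.3.3 (lmFit, eBayes, no covariate, two-sided) was run on 13953 genes with Benjamini-Hochberg adjustment. The code was tested on simulated data. Pairs of members were compared by exact two-sided permutation (scipy 1.17.1). Same-numbered arrays carried no label of pairing. Promoter windows came from RefSeq, build GRCm38.p6. Alternatives covered the variance prior, array weights, normalization, the brightness filter, probe set choice, the replicate number and left-out arrays.

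The members and gene lists were chosen with earlier results of these data known. Named genes are the 9 members, genes of the lists, with values of their own where tested, and the 2 closest profiles of each member. The list of adipocyte markers had 1 gene, Cfd, and the lists of activation and carnitine relatives had Acsl3 and Tmlhe, without a probe set of that symbol alone.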

Additional observations from a re-analysis of the deposited data

Results flagged for a closer look

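In 4 cases 1 array stood far from the other 4 of its group, measured as the gap to its nearest neighbour over the range of the group. Such gaps were looked for in 62 groups of 5 arrays, over 31 genes or probe sets, and chance alone marks about 1 group in 20 (5%). Slc27a1 read 10.56 in tamoxifen-labelled array 4, against 10.26 to 10.32 in the other 4, the array nearest to the vehicle-labelled ones. Cd36 read 13.51 in vehicle-labelled array 2, against 13.40 to 13.43. The second Fabp3 probe set read 13.77 in vehicle-labelled array 2, against 13.70 to 13.72, and 13.73 in tamoxifen-labelled array 1, against 13.83 to 13.85. With vehicle array 2 left out the Cd36 log2 fold change was 0.062 (limma adjusted p = 0.436).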

How the results depend on the processing

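Over 20 alternatives Slc27a1, Cpt2, Crat and Slc22a5 stayed lower with limma adjusted p of at most 0.0192, Cd36 was not called, and no member changed sign. Across settings 4 or 5 members were lower. The count of lower genes was 1784 with array weights against 1155, and over left-out arrays it ran from 937 to 1649. Higher genes made up 62.2% of all calls, 51.6% with array weights, 49.6% without tamoxifen replicate 2 and 46.2% without vehicle replicate 4 as well. The change of Cd36 minus Slc27a1 was 0.43 to 0.52 with 1 array left out, where the adjusted p was 0.0635 in 9 of 10 cases, the smallest that 4 against 5 arrays give unless another pair also has a low p. With the replicate number as a block it was 0.47 with an adjusted p of 0.125, since 5 pairs cannot go below 0.0625 unadjusted. Cpt1b (shared probe set) minus Cpt2 was 0.097 after quantile normalization and 0.070 to 0.10 with 1 array left out. Cpt1a minus the shared probe set was 0.018 with all arrays, reversed to -0.0050, -0.010 and -0.0020 without vehicle replicate 2, vehicle replicate 4 and tamoxifen replicate 1, and ran to 0.053. The cause of these changes was not tested. The replicate block gave 3523 calls against 3052 and changed no call of a member. Deviations from the group means of same-numbered arrays correlated at 0.038 to 0.20, and in 4 of 5 cases the vehicle-labelled array correlated best with its own number, a hint from the data and not from the design.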
